A study of Mus musculus with 6 samples.

Results

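The Ifitm family encodes interferon-induced transmembrane proteins, and it was followed here through 6 of its mouse genes, Ifitm1, Ifitm2, Ifitm3, Ifitm6, Ifitm7 and Ifitm10, in back epidermis with and without Spry1. Members were the rows of the expression table that carry these 6 gene names, out of 54532 genes in all. The members were chosen by name with the FPKM of the knockout against the control columns in view, so their differences between genotypes are given as a description, with no test. The knockout group was 3 samples of Spry1flox/flox K14-Cre-ERT2 mice, in which a tamoxifen-dependent Cre driven by the keratin 14 promoter of basal keratinocytes deletes Spry1, whose product dampens growth factor signalling through the ERK pathway. The control group was 3 samples of Spry1flox/flox mice without Cre. All mice were gavaged with tamoxifen (0.1 mg/g, on 4 occasions weekly for 4 weeks), and RNA-seq was made from total RNA of the epidermis. A Cre-only control is not among the samples, so Cre activity and loss of Spry1 cannot be told apart. The labels give no ages and do not state whether each sample is its own animal. The p-values below therefore measure the spread between these samples only, which may be technical in part.

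Spry1 itself had 1.06, 1.49 and 1.28 FPKM in the knockouts, against 25.8, 28.2 and 34.4 FPKM in the controls, which matches the labels. FPKM count fragments per kilobase of exon at a standard depth, so levels can be compared between genes. Reads recovered from the values summed to between 18383300 and 21024700 per sample. Knockout replicate 2 was the only sample above 1 FPKM for the Y-linked gene Eif2s3y (19.3 FPKM, against at most 0.203 FPKM in any other sample). Control replicate 3 lay farther from both other controls (chi-square per gene of 83.6 and 73.8) than they lay from each other (14.1). Counts and member values were also computed without this pair of samples. Of 10 keratinocyte markers all were expressed in both genotypes, with a summed level of 22340 to 27970 FPKM in the knockouts and 12690 to 15220 FPKM in the controls.

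IFITM proteins are small proteins of the plasma and endosomal membranes that hinder the entry of enveloped viruses into cells. Ifitm3 is known above all for blocking viruses that fuse in late endosomes, Ifitm1 acts more at the cell surface, and Ifitm2 is a close copy of Ifitm3. All 3 are induced by interferons in many cell types, through response elements near their start sites. Ifitm6 belongs to the same cluster but is less studied, and Ifitm10 is a distant member with no settled function. Ifitm7 lies apart from the cluster. Epithelial stem and progenitor cells can express Ifitm genes without infection, so both a baseline and an interferon-dependent level may occur in epidermis.

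Of the 6 genes, 5 lie on chromosome 7 in GRCm38 and 1 on chromosome 16. Ifitm2 (140954837 to 140955987), Ifitm1 (140967221 to 140969825), Ifitm3 (141009586 to 141010770) and Ifitm6 (141015699 to 141017924) form a cluster spanning 63.1 kb. Ifitm3 and Ifitm6 are nearest neighbours on the same strand, with 4.93 kb between them. Ifitm10 (142325837 to 142373753) follows 1308 kb further on, and Ifitm7 lies on chromosome 16 from 13981699 to 13986888.

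Promoters of the 4 clustered members are shown because these genes lie side by side and yet differ in direction between the genotypes. Each stretch is 300 bases long, from 250 bases before the RefSeq start, in GRCm38.p6, and runs 5′ to 3′ on the strand of its gene. Capitals mark matches to GAAANNGAAA, the core of an interferon-stimulated response element, on either strand. The Ifitm3 window is chr7:141010695-141010994 on the minus strand, Ifitm2 chr7:140955912-140956211 minus, Ifitm1 chr7:140967826-140968125 plus and Ifitm6 chr7:141016843-141017142 minus.
Ifitm3: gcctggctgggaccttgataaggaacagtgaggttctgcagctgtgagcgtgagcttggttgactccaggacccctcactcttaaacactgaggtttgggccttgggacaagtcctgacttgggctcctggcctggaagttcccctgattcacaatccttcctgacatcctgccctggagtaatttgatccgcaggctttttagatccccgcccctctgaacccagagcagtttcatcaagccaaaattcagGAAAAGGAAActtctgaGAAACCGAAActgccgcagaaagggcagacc
Ifitm2: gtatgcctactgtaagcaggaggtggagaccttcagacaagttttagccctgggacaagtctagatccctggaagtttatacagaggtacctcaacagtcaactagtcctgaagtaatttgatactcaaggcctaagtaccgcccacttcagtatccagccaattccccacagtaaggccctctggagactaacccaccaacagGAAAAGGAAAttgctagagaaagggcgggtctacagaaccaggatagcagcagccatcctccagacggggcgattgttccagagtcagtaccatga
Ifitm1: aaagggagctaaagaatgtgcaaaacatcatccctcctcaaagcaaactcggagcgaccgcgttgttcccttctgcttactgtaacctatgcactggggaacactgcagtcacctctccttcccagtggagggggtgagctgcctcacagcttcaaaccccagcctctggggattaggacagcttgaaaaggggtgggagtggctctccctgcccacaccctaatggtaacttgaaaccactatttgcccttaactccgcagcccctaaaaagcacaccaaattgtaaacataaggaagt
Ifitm6: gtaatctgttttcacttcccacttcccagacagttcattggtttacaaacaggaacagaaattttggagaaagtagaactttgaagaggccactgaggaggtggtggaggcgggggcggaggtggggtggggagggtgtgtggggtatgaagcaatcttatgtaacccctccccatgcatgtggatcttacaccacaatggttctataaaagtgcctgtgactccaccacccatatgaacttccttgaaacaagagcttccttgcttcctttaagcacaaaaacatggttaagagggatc
Ifitm3 held 2 matches, GAAAAGGAAA and GAAACCGAAA, beginning 3 and 20 bases into the transcript from the RefSeq start. Ifitm2 held 1, GAAAAGGAAA, beginning 46 bases before its start. None lay in the windows of Ifitm1, Ifitm6 or Ifitm7 or in the 3 listed for Ifitm10. The core was found in 3.44% of all 32851 promoters of this length. TTCNNNGAA, the core of a gamma-activated sequence, which reads the same on both strands in its fixed letters, lay in 8.30% of all promoters. It was found in Ifitm3 as TTCTGAGAA, overlapping the second response element match, and in Ifitm6 as TTCCTTGAA, 10 bases before the start. The outermost GENCODE M21 start lies 26 bases upstream of the RefSeq start for Ifitm3 and Ifitm2, but 855 bases upstream for Ifitm1 and 1032 bases for Ifitm6, so these windows need not hold every start in use. A match is a description of the letters and not evidence of binding.

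Ifitm3 was the most abundant member in the knockouts. It had 673, 399 and 528 FPKM in knockout epidermis, against 98.2, 150 and 155 FPKM in control epidermis. The lowest knockout sample stood well above the highest control, and the means were 533 ± 137 and 134 ± 31.5 FPKM (SD, n = 3 each), a 3.97-fold difference. On the log2(FPKM + 1) scale, which understates changes of low genes, the difference was 1.98. In bulk tissue, more cells that express a gene and more RNA per cell cannot be told apart.

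Ifitm2 differed in the same direction by less. It had 164, 123 and 138 FPKM in the knockouts, against 82.8, 80.6 and 78.0 FPKM in the controls. The controls were nearly equal (80.5 ± 2.42 FPKM) and the knockouts spread more (142 ± 20.9 FPKM, SD, n = 3 each), without overlap. The log2 difference was 0.80.

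Ifitm1 was low in both genotypes, with 4.09, 2.42 and 4.89 FPKM in the knockouts and 0.552, 0.650 and 0.797 FPKM in the controls. These values rest on 46 to 90 reads per knockout sample and 11 to 17 reads per control sample. The groups did not overlap, and the means of 3.80 ± 1.26 and 0.666 ± 0.124 FPKM (SD, n = 3 each) were 5.71-fold apart. The log2(FPKM + 1) difference was 1.49, and 2.30 with a pseudocount of 0.1.

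Ifitm6 went the other way. It had 0.550, 0.191 and 0.134 FPKM in knockout epidermis, against 148, 155 and 63.9 FPKM in control epidermis. In reads, 15 were counted over the 3 knockout samples (2 to 10 per sample), against 6124 over the 3 controls (1128 to 2562 per sample). At the depths the authors scaled by, these reads, pooled per genotype, were 393-fold more frequent in the controls. An exact binomial 95% interval of 238 to 702 covers counting error only. It leaves out the spread between samples and is no test of genotype, since the contrast chose the members. Knockout replicate 1 held 10 of the 15 reads, and without it the ratio was 739 (interval 317 to 2278). Without any other 1 sample it was 315 to 492. The log2(FPKM + 1) difference was -6.49, and only 3 of the 12629 genes tested, those averaging 1 FPKM or more, had a lower one. Among the controls, replicate 3 was well below the other two, and the difference was -6.84 without it and knockout replicate 2.

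Ifitm10 did not separate the genotypes. It had 1.38, 1.65 and 1.84 FPKM in the knockouts, against 1.21, 1.35 and 1.98 FPKM in the controls, so the ranges overlapped and the highest value was a control. The log2 difference was 0.07 on the deposited values and -0.13 with values rescaled to a common sum per sample (TPM), so even its direction is not settled. Ifitm7 was listed at 0 in all 6 samples. A count of 3 reads would have been 0.0628 to 0.0767 FPKM, which is the upper limit that a count of 0 allows.

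**Figure D1:**
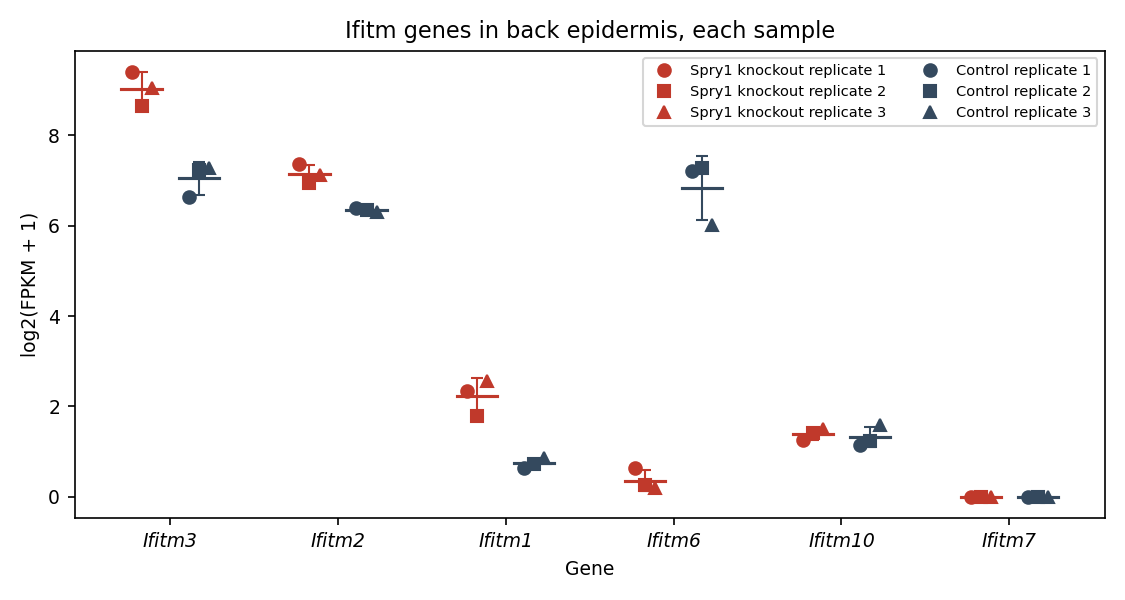
Level of each Ifitm gene as log2(FPKM + 1), with 1 point per sample, knockouts in red left of controls in dark blue, horizontal lines at the means and bars of 1 SD (n = 3 each). Knockout points lie above control points for Ifitm3, Ifitm2 and Ifitm1 and far below them for Ifitm6, while Ifitm10 overlaps and Ifitm7 is at 0.

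The groups did not overlap for 4 of the 5 tested members, 3 of them higher and 1 lower in the knockouts. Over all tested genes this held for 64.2%, 34.9% higher and 29.4% lower, and nothing is read from that count since the contrast chose the members. Ifitm1 and Ifitm6 reached that mean only through the genotype in which they were high. The order of levels differed by genotype. In the knockouts it ran Ifitm3, Ifitm2, Ifitm1, Ifitm10 and Ifitm6, with Ifitm3 above Ifitm2 in every sample. In the controls Ifitm3 and Ifitm6 shared the top, since their ranges of 98.2 to 155 and 63.9 to 155 FPKM overlapped. Ifitm2 followed at about 80 FPKM, within the range of Ifitm6, and Ifitm10 lay above Ifitm1.

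Summed over the family, transcripts came to 843, 526 and 673 FPKM in the knockouts, against 330, 388 and 300 FPKM in the controls (681 ± 159 and 339 ± 44.6 FPKM, SD, n = 3 each). The make-up of this pool differed as well as its size. Ifitm6 held 0.020% to 0.065% of it in the knockouts and 21.3% to 44.7% in the controls. Ifitm3 held 75.8% to 79.8% in the knockouts and 29.7% to 51.7% in the controls. Ifitm2 had a similar share, 19.5% to 23.4% in the knockouts and 20.8% to 26.0% in the controls, with overlapping ranges.

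**Figure D2:**
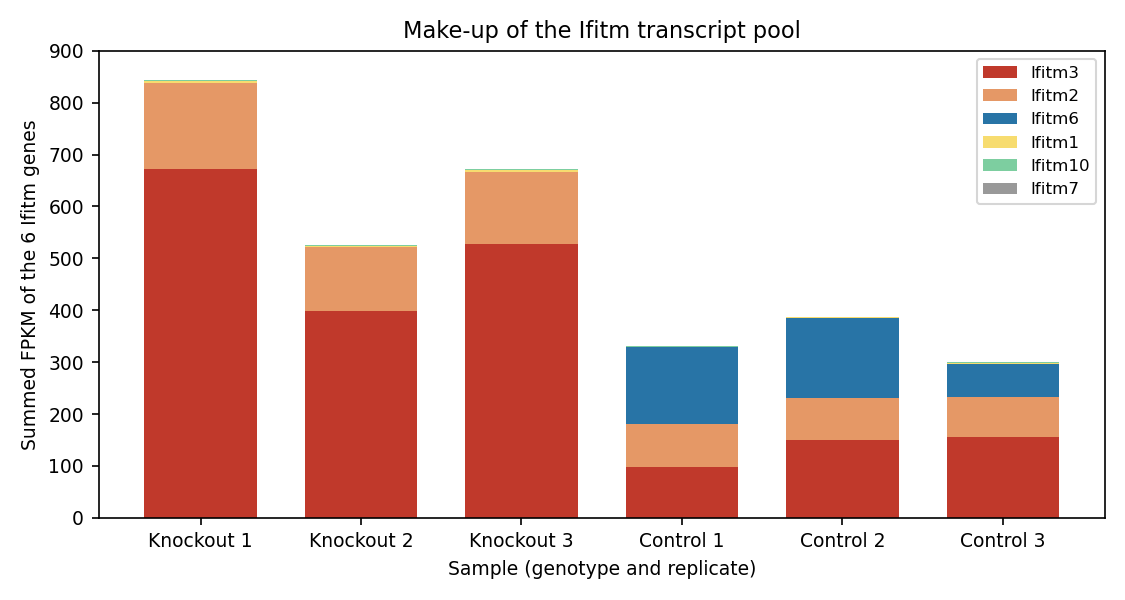
Stacked FPKM of the 6 Ifitm genes in each sample (vertical axis, FPKM, from 0), with the 3 knockout samples left of the 3 controls. The blue Ifitm6 block, 21.3% to 44.7% of the pool in controls, cannot be seen in the knockouts, where Ifitm3 makes up 75.8% to 79.8%.

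Ratios between members within a sample do not depend on how samples were scaled. Ifitm3 over Ifitm2 was 4.10, 3.24 and 3.82 in the knockouts and 1.18, 1.86 and 1.99 in the controls, so the 2 genes differed by unequal amounts. Ifitm6 over Ifitm2 was 0.00335, 0.00155 and 0.000973 in the knockouts and 1.78, 1.92 and 0.820 in the controls. Ifitm1 over Ifitm3 was 0.00608 to 0.00926 in the knockouts and 0.00433 to 0.00562 in the controls, with means of 0.00714 and 0.00503. These ranges lie close together, and the control ratios rest on 11 to 17 Ifitm1 reads per sample. No separation of the genotypes is read from them.

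Members varied within a genotype as well. Of the knockouts, replicate 1 was highest for Ifitm3, Ifitm2 and Ifitm6, replicate 3 was highest for Ifitm1 and Ifitm10, and replicate 2 was lowest for Ifitm3, Ifitm2 and Ifitm1. The coefficient of variation of Ifitm3 was 25.7% in the knockouts and 23.4% in the controls, while that of Ifitm2 was 14.7% in the knockouts and 3.0% in the controls. In the controls replicate 3, lowest for Ifitm6, was highest for Ifitm3, Ifitm1 and Ifitm10.

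How far reads can be assigned to single members was judged from the annotated transcripts. Ifitm3 and Ifitm2 share an identical run of 69 bases, and Ifitm3 and Ifitm1 one of 64 bases, so the split between these 3 genes is uncertain for short reads. Ifitm6 shares at most 25 bases with any member, the shortest such maximum among the clustered genes. Annotated gene models overlap Ifitm2 (Gm45717), Ifitm10 (Gm49369) and Ifitm7 (2900011O08Rik), and these were at or below 0.024 FPKM in every sample.

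Genes with the most similar profile were sought among all tested genes by the root mean square difference of centred log2(FPKM + 1) values over the 6 samples. For Ifitm3 they were Pdpn, Runx1 and Dusp6 (0.11, 0.17 and 0.18). Pdpn encodes podoplanin, a membrane glycoprotein of basal keratinocytes in wounds and of lymphatic vessels, Runx1 a transcription factor, and Dusp6 a phosphatase of ERK. For Ifitm2 they were Unc93b1, a carrier of endosomal Toll-like receptors, Acadl and Fbxo5 (0.05, 0.06 and 0.07). Ifitm1 was nearest to Plac8, Tmem119 and Foxi3 (0.09, 0.09 and 0.14), and Ifitm10 to Med7, Irak1 and Pts (0.05 each). Ifitm6 had no close match, the nearest being Mrgprb11-ps, Mrgprb9-ps and Igfbp3 at 0.43, 0.69 and 0.74. These distances mostly restate the size of the difference between genotypes.

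Other interferon-stimulated genes moved both ways, with more up than down. Of 40 on a list chosen with earlier results of these data known, 28 had a mean of at least 1 FPKM. Of these, 13 rose and 5 fell (limma, Benjamini-Hochberg adjusted p under 0.05). Ifit3, Ifit1, Rtp4, Oasl2, Zbp1, Dhx58 and Oas1g, all among the 13, averaged under 1 FPKM in the controls. They reached a mean of 1 FPKM only through the knockouts, while the 5 that fell averaged above 1 FPKM in both genotypes. Over all 12629 tested genes 54.0% passed, 29.6% higher and 24.4% lower. The median log2 fold change of the list was 0.42, against 0.03 for all tested genes, and the 28 values can be seen beside those of the members. Without knockout replicate 1 the median was 0.20 and without control replicate 3 it was 0.28, while 12 rose and 5 fell in both, as without control replicate 3 and knockout replicate 2 together. Under TPM scaling 12 rose and 6 fell. Without the filter on low values 18 of the 40 rose and 5 fell, beside 4000 and 3709 of 28340 genes in all.

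Isg15, a ubiquitin-like modifier, had 47.3, 31.9 and 26.6 FPKM in the knockouts, against 7.84, 7.31 and 7.26 FPKM in the controls. It rose by 2.06 ± 0.19 (log2 scale, ± SE, with a limma adjusted p of 0.000247). Ifit3 had 6.70, 3.57 and 3.34 FPKM in the knockouts and 0.283, 0.313 and 0.294 FPKM in the controls. It rose by 2.04 ± 0.22 (limma adjusted p of 0.000443). The log2(FPKM + 1) value of Ifit3 is damped by its low level in the controls, its means being 4.54 FPKM in the knockouts and 0.297 FPKM in the controls. Knockout replicate 1 was the highest sample for Isg15, Ifit3 and Ifitm3. Ifi35 and the ubiquitin ligase gene Trim25 rose by less, 0.65 and 0.71 (limma adjusted p of 0.000356 and 0.000384). The 5 that fell, named after their values were seen, were Usp18, which removes ISG15 from proteins, the antigen processing genes Tap1 and Psmb9, the exonuclease gene Isg20 and Ifi27, with log2 fold changes of -1.39, -0.97, -0.89, -0.94 and -0.91. Promoters were listed for 29 of the 40 genes, and 14 of their 33 windows (42.4%) held GAAANNGAAA. Of the 13 genes that rose, only 9 had a listed window, and 6 of these held it. Whether the match goes with the rise was not tested.

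Among receptors, kinases and factors of interferon signalling, 2 of 18 rose and 2 fell, below the 54.0% of all genes. Ifngr1, the ligand-binding chain of the interferon gamma receptor, had 18.0, 14.8 and 16.4 FPKM in the knockouts, against 98.4, 100 and 65.9 FPKM in the controls (-2.34 ± 0.17, limma adjusted p of 0.0001). Ifnlr1, of the interferon lambda receptor, fell by 0.97 (limma adjusted p of 0.00127). Ifnar2, of the type I receptor, rose by 0.72 and Irf7, the interferon-induced factor that amplifies type I interferon, by 1.41 (limma adjusted p of 0.00423 and 0.000719). Stat2 and Irf9, transcription factors of interferon signalling, had log2 fold changes of -0.13 and -0.25 and missed the threshold (limma adjusted p of 0.608 and 0.364). All 9 interferon genes on the list were below 1 FPKM in every sample, up to 0.692 FPKM for Ifng in knockout replicate 1. Of these, Ifne, Ifna4 and Ifnz were listed at 0 throughout.

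Of 12 genes for enzymes and partners of IFITM proteins, 10 were tested, and 3 rose and 2 fell, a share of 50% against 54.0% for all genes. Cd81, a tetraspanin that binds IFITM1 on lymphocytes, had 39.6, 42.1 and 41.6 FPKM in the knockouts, against 19.2, 17.4 and 18.8 FPKM in the controls (1.11 ± 0.08, limma adjusted p of 7.79e-05). Cd9, a related tetraspanin, had 223, 233 and 209 FPKM in the knockouts, against 413, 378 and 411 FPKM in the controls (-0.85 ± 0.10, limma adjusted p of 0.000493). Vapa and the palmitoyltransferase gene Zdhhc7 rose by 0.45 and 0.29 (limma adjusted p of 0.00564 and 0.0103), calls lost under TPM scaling (0.169 and 0.815). The call for Zdhhc7 was also lost with values scaled to recovered reads (0.101) and with limma-voom (0.124). Under TPM scaling 1 gene of the list rose and 2 fell. Nedd4, whose ubiquitin ligase turns over IFITM3, and Zmpste24, a protease that IFITM proteins need for their antiviral effect, missed the threshold (limma adjusted p of 0.285 and 0.112). Of 8 genes whose proteins share the CD225 domain with the IFITM proteins, 7 were in the table and none exceeded 0.318 FPKM, the highest value being for Ifitm5, the bone-restricted member of the cluster.

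**Figure D3:**
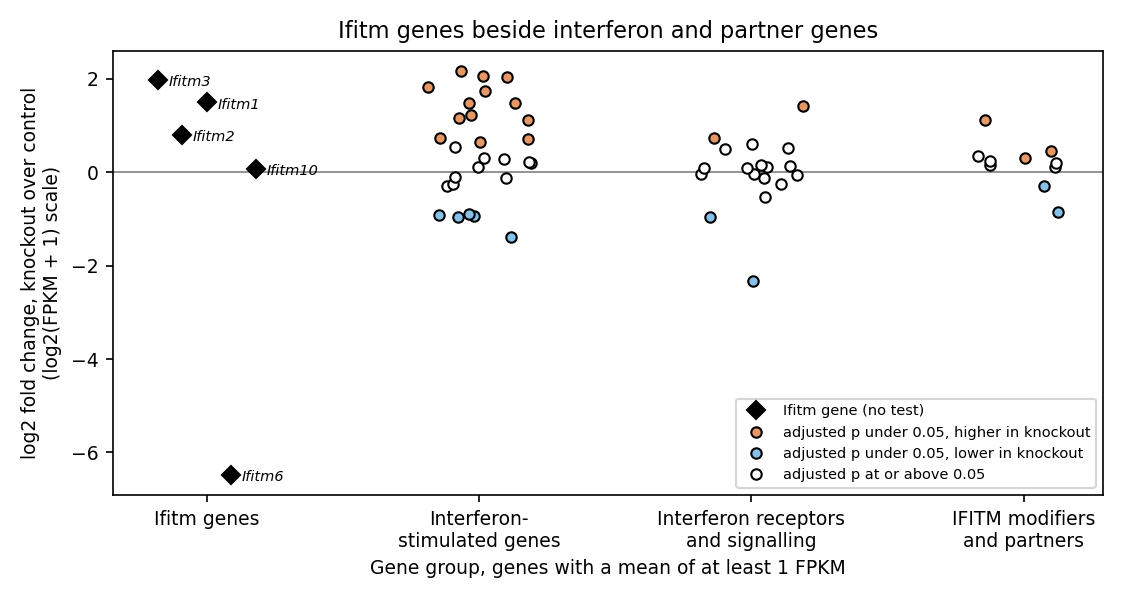
Log2 fold change (knockout over control, log2(FPKM + 1) scale) of the Ifitm genes, as black diamonds with no test, and of tested genes of 3 lists, as circles coloured by limma adjusted p under 0.05 and direction. Ifitm3, Ifitm1 and Ifitm2 fall among the risen interferon-stimulated genes, and Ifitm6 lies below every gene shown.

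Genes around the members were examined within 100 kb. There were 44, of which 17 were tested, and 3 rose and 6 fell, a share of 52.9% against 54.0% for all genes. Of those called, Syt8 reached a mean of 1 FPKM only through the knockouts, and Tnni2 and Gm24962 only through the controls. Around the cluster of 4, 1 of 11 rose and 3 fell, with a median log2 fold change of -0.19. Ano9, of the anoctamin family of membrane proteins, had 17.7, 17.9 and 14.7 FPKM in the knockouts, against 54.4, 46.7 and 60.2 FPKM in the controls, the largest change among them (-1.62 ± 0.12, limma adjusted p of 0.00011). Psmd13, a proteasome subunit, rose by 0.49 and Ric8a fell by 0.38 (limma adjusted p of 0.00752 and 0.00338), and the call for Psmd13 was lost under TPM scaling (0.0913). Gm24962, an snRNA of low level annotated within the span of Ano9 on the same strand, so that its reads are uncertain, fell by 1.33 (limma adjusted p of 0.0198), a call lost without any 1 of knockout replicates 2 and 3 and control replicates 1 and 3 (0.0509 to 0.0678). The nearest tested gene, Pgghg, at 7.17 kb from Ifitm2, had a log2 fold change of -0.35 and missed the threshold (limma adjusted p of 0.0755), which it passed under TPM scaling, with limma-voom and without knockout replicate 1 (0.0389, 0.0498 and 0.0480). Nor did Sirt3, Gm15542, B4galnt4, Pkp3, Sigirr and Bet1l (0.0516 to 0.863), although Sirt3 passed under TPM scaling (0.0183), scaled to recovered reads (0.0275), with limma-voom (0.0080) and without control replicate 3 (0.0430), and Gm15542 without control replicate 2 (0.0377). None of the tested neighbours of the cluster came near the difference of Ifitm6, which lies 4.93 kb from Ifitm3.

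Near Ifitm10, Ctsd, a lysosomal protease gene 2.16 kb away, and Syt8 rose by 0.80 and 0.77 (limma adjusted p of 0.0222 and 0.0106), while Lsp1 and Tnni2 fell by 0.70 and 1.26 (0.00889 and 0.0445). Ctsd did not pass without knockout replicate 1 or 2 (0.0582 and 0.0721) under TPM scaling (0.0571) or without the filter on low values (0.0527). Tnni2 did not without any 1 sample other than control replicate 3 (0.0791 to 0.125), without the filter (0.0991) or with the replicate number as a second term (0.0766). Near Ifitm7, Pdxdc1 fell by 0.56 (limma adjusted p of 0.00315) and Mpv17l did not pass (0.0776), except without knockout replicate 1 (0.0473).

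**Figure D4:**
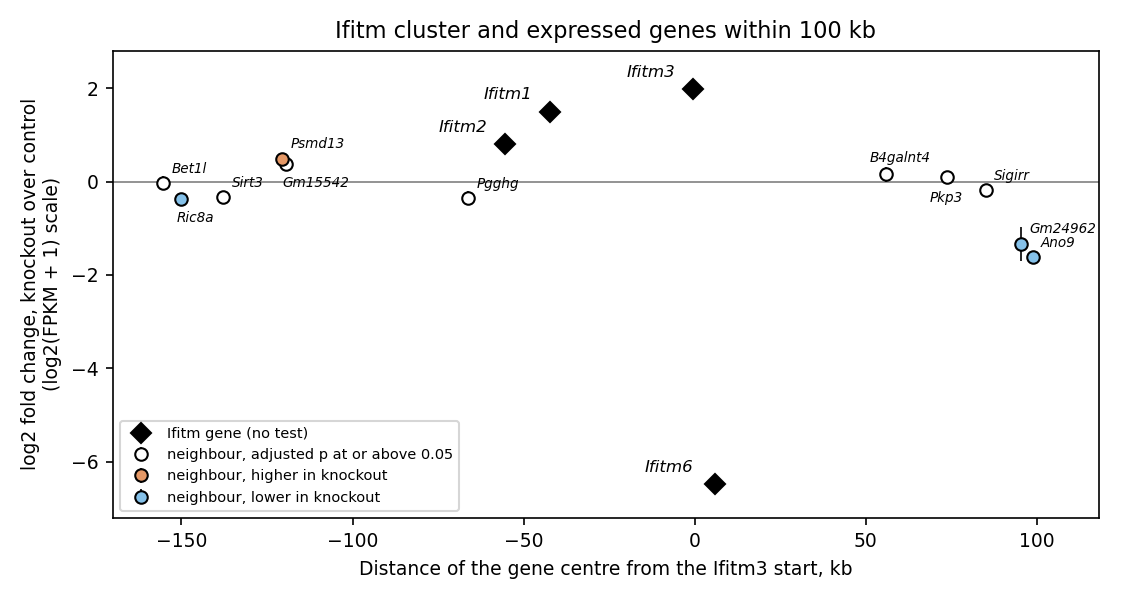
Log2 fold change (knockout over control, log2(FPKM + 1) scale) by distance from the Ifitm3 start in kb, for the 4 clustered Ifitm genes (diamonds, no test) and the 11 tested genes within 100 kb (circles with SE bars). Ifitm6 at -6.49 lies next to Ifitm3 at 1.98, and the tested neighbours lie between -1.62 and 0.49.

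Markers of other cell types were compared between the genotypes as well, beside the 54.0% of all tested genes that passed (29.6% higher, 24.4% lower). The share that passed was 91.7% of the tested monocyte, macrophage and neutrophil markers and 62.5% of the Langerhans cell markers. It was 80% for T cell, 66.7% for fibroblast, 12.5% for hair follicle and sebaceous and 90% for keratinocyte markers. Of 12 tested monocyte, macrophage and neutrophil markers 8 rose and 3 fell, and the summed level of all 14 was 99.0 to 176 FPKM in the knockouts and 42.0 to 60.4 FPKM in the controls. Of the 8 that rose, Cd14, C1qc, Ccr2, Ly6c2 and Cxcr2 averaged under 1 FPKM in the controls. These reached a mean of 1 FPKM only through the knockouts. By lowest p, Cd14, C1qb, C1qc and Ly6c2 came first, and all rose. Mean levels, knockouts first, were 9.2 and 0.825 FPKM for Cd14, 29.3 and 2.17 FPKM for C1qb and 12.2 and 0.999 FPKM for C1qc. Ly6c2, a defining marker of inflammatory monocytes, had 1.66 to 2.47 FPKM in the knockouts and 0.0749 to 0.259 FPKM in the controls. Ly6g, a neutrophil marker, was listed at 0 in every sample but knockout replicate 1 (0.0528 FPKM). Cxcr2, on the same list, had 3.46, 1.83 and 5.305 FPKM in the knockouts, against 0, 0.108 and 0.0505 FPKM in the controls. The 3 that fell, named after their values were seen, were Csf1r (7.62 FPKM in the knockouts and 18.2 FPKM in the controls), Adgre1 (1.88 FPKM in the knockouts and 6.74 FPKM in the controls) and S100a4 (1.75 FPKM in the knockouts and 3.55 FPKM in the controls). Of 8 Langerhans cell markers 5 fell and 0 rose (540 to 807 FPKM in the knockouts, 1409 to 2323 FPKM in the controls). Those that fell were Cd207 and the antigen presentation genes Cd74, H2-Eb1, H2-Ab1 and H2-Aa. Cd207 had means of 9.06 FPKM in the knockouts and 47.5 FPKM in the controls. Of 10 T cell markers 3 rose and 5 fell (33.9 to 70.1 FPKM in the knockouts, 68.2 to 96.8 FPKM in the controls). None rose without knockout replicate 1 or 3. Those that rose were Trac, Cd4 and Cd8a. Of these, Cd4 and Cd8a reached a mean of 1 FPKM only through the knockouts. Trdc, which had the lowest p, fell, with means of 1.465 FPKM in the knockouts and 15.3 FPKM in the controls. Endothelial markers, 8 in all, had at most 1.84 FPKM for any gene and a sum of 1.96 to 2.71 FPKM in the knockouts and 1.68 to 5.51 FPKM in the controls. Of 6 tested fibroblast markers 1 rose and 3 fell, with Postn making up most of a sum of 161 to 313 FPKM in the knockouts and 32.8 to 44.3 FPKM in the controls. Without knockout replicate 1 only 1 of them fell. The 3 that fell with all samples, Col3a1, Col1a2 and Dpt, reached a mean of 1 FPKM only through the controls. Of 8 tested hair follicle and sebaceous markers Krt15 fell (-2.10 ± 0.18, limma adjusted p of 0.000175) and the others did not pass. The list summed to 1311 to 1584 FPKM in the knockouts and 3568 to 4244 FPKM in the controls, but without Krt15 to 658 to 680 FPKM in the knockouts and 261 to 651 FPKM in the controls. Of the 10 keratinocyte markers 5 rose and 4 fell. The part of these cell types in the Ifitm values was not tested.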

How the data were processed

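RNA-seq of back epidermis was taken from 6 samples, 3 knockouts and 3 controls, grouped and numbered as labelled. Expression was deposited by the authors as FPKM of 54532 genes in 1 table. Per the submitters' processing notes the tools were HISAT2 2.0.5 and featureCounts 1.5.0-p3, on GRCm38. Annotation release, read length, use of strand and handling of multiply mapping reads were not stated, and a gene's reads cannot be separated from those of an overlapping one.

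Gene positions and exon lengths came from GENCODE M21 (54495 IDs matched), and 27 gene names turned into dates were replaced by ID. FPKM times exon length gave whole multiples of 1 step per sample for 97.0% to 97.3% of values above 0 (tolerance 0.1 reads), all members included. The totals the authors scaled by were 88.1% to 95.6% of the recovered reads in the knockouts and 98.8% to 102.9% in the controls. No replicate pair agreed within sampling noise.

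Genotypes were compared by limma-trend (limma 3.58.1 in R 4.3.3), two-sided and without covariates, on log2(FPKM + 1) of the 12629 genes averaging 1 FPKM or more, with Benjamini-Hochberg adjustment over all of them and a threshold of 0.05. It was also run on simulated data with few changed genes and no difference in scaling between groups, unlike these data. Nothing is read from that run. Lists are described by counts and medians beside those of all genes.

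The members and the 12 hand-made lists (155 genes, 154 in the table) were chosen with earlier results of these data known. Named genes were every member, up to 4 genes per list past the threshold with the lowest p (at most 2 of a list with none), every tested neighbour within 100 kb, Spry1, and the 3 nearest profiles of each member with a mean of at least 1 FPKM. Also named, after their values were seen, were Usp18, Tap1, Psmb9, Isg20, Ifi27, Stat2, Irf9, Nedd4, Zmpste24, Ifng, Ly6g, Cxcr2, Csf1r, Adgre1, S100a4 and Eif2s3y. So were Ifit1, Rtp4, Oasl2, Zbp1, Dhx58, Oas1g, Ccr2, H2-Aa, Trac, Cd4 and Cd8a. Promoters are RefSeq's in GRCm38.p6, and all 6 members matched. The analysis was repeated with a pseudocount of 0.1, without the filter, under median-ratio and TPM scaling, with a replicate block, by limma-voom on recovered reads and without each sample in turn. Scaling to recovered reads, a fit without both control replicate 3 and knockout replicate 2, the Ifitm6 read ratio without each sample and the hair follicle sum without Krt15 were added after seeing the data. Scaling and left-out samples kept the same tested genes. Figures were drawn with matplotlib 3.10.9 (Python 3.11.15).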

Additional observations from a re-analysis of the deposited data

How the results depend on the processing

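Ifitm3, Ifitm2 and Ifitm1 were higher and Ifitm6 lower in the knockouts under every alternative run, and Ifitm10 changed direction. Log2 differences without 1 sample ranged from 1.77 to 2.17 for Ifitm3, 0.69 to 0.90 for Ifitm2, 1.33 to 1.72 for Ifitm1, -6.89 to -6.26 for Ifitm6 and -0.02 to 0.20 for Ifitm10. Without control replicate 3 and knockout replicate 2 together they were 2.29, 0.87, 1.77, -6.84 and 0.19. TPM scaling, which moved the median of all genes by -0.25, gave 1.70, 0.53, 1.71, -7.57 and -0.13, and limma-voom on recovered reads (median moved by -0.13) gave 1.85, 0.68, 2.29, -8.78 and -0.02. With a pseudocount of 0.1 Ifitm6 was at -8.33. Scaling to recovered reads moved the median by -0.11, with Ifitm10 at -0.01.

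All genes gave 3736 higher and 3079 lower calls, 2055 and 4470 under TPM scaling, 2900 and 3742 scaled to recovered reads and 2914 and 3802 with limma-voom, and 5647 to 7313 calls without 1 sample. Called genes of the modifier and partner list numbered 3 under TPM scaling. T cell markers called ranged from 5 to 8 without 1 sample, fibroblast markers from 2 to 6 and hair follicle markers from 1 to 3. Fibroblast markers numbered 2 without both doubted samples. Hair follicle markers numbered 2 with a pseudocount of 0.1, under median-ratio, TPM or recovered-read scaling, with limma-voom and without both doubted samples. B4galnt4 under TPM scaling (limma adjusted p of 0.865), Pkp3 under TPM scaling, recovered-read scaling and limma-voom (0.373, 0.853 and 0.845) and Bet1l without knockout replicate 1 or control replicate 1 (0.993 and 0.622) changed direction without a call, and the p of Bet1l without 1 sample ranged from 0.117 to 0.998. The cause of these shifts was not tested.

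The replicate numbers showed no sign of pairing. Deviations of same-numbered samples correlated at -0.10, -0.11 and -0.12, and those of differently numbered samples at -0.04 to 0.15. With 3 samples per genotype these values cannot exclude a pairing. With the replicate number as a block 5834 genes passed, the hair follicle markers numbered 3, and Tnni2 was lost (0.0766). Depth limits Ifitm1, Ifitm7 and the knockout values of Ifitm6, which rest on 0 to 90 reads per sample.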
